A study of Mus musculus with 8 samples.

Results

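The Ccl2, Ccl7, Ccl12 and Ccl8 chemokine cluster was studied as a stretch of open chromatin in mouse bone marrow-derived macrophages. Its members were the ATAC-seq peaks of build mm9 that end at or after position 81815000 and start at or before position 82010000 of chromosome 11, a window of 195000 bp. This rule, which used no measured value, took 30 of the 74207 peaks in the table. ATAC-seq uses the Tn5 transposase to insert adapters into open chromatin, so the read density of a peak is a measure of accessibility. The macrophages came from 2 wild-type C57Bl/6 mice, were grown in CMG medium with serum, and gave 1 library per mouse in each of 4 groups. The groups were fenoterol + LPS (1 µM fenoterol, an agonist of the β2 adrenergic receptor, for 15 min and then 100 ng/mL LPS for 1 h), LPS alone (100 ng/mL for 1 h), fenoterol alone (1 µM for 15 min) and unstimulated cells. Cells given fenoterol alone were therefore taken 15 min after the agonist, and cells given both a further 1 h later. LPS, a cell wall component of Gram-negative bacteria, is sensed by Toll-like receptor 4. Peaks are not paired with genes in the table and no annotation of build mm9 was used, so the macrophage label was not checked against marker genes. The libraries are of bulk nuclei, in which fewer cells with an open site and less opening per cell cannot be told apart.

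Ccl2, Ccl7, Ccl12 and Ccl8 encode secreted chemokines of the monocyte chemoattractant protein family, which call monocytes and other leukocytes to sites of inflammation. Ccl2 and Ccl7 act mainly through the receptor Ccr2, and loss of either lowers the release of monocytes from bone marrow in mice. The genes are neighbours that arose by duplication, and in macrophages they are transcribed after Toll-like receptor signals that activate NF-kB and AP-1 factors. The β2 adrenergic receptor acts mainly through cyclic AMP and, with it, on factors that bind cyclic AMP response elements. In RefSeq on build GRCm38.p6 the order of genes along the chromosome is Ccl2, Ccl7, Ccl11, the noncoding Gm38913, Ccl12, Ccl8 and Ccl1. Ccl11 encodes eotaxin, which attracts eosinophils, and Ccl1 a ligand of the receptor Ccr8. The window places Ccl2 near 81849000 and Ccl7 near 81859000 on mm9. These are the only genes that could be set against single peaks, and other peaks are given by the distance of their centre from the Ccl2 position, to the left for lower and to the right for higher coordinates.

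Promoter sequences are shown for the members of the family with an entry in the RefSeq promoter table on GRCm38.p6, as the stretch of 250 bases before the start on the + strand. That of Ccl12 is chr11:82101595-82101844 and that of Ccl8 is chr11:82114935-82115184. Capitals mark TATAAA, the letters searched on the strand shown for the box where the general transcription machinery binds.
Ccl12: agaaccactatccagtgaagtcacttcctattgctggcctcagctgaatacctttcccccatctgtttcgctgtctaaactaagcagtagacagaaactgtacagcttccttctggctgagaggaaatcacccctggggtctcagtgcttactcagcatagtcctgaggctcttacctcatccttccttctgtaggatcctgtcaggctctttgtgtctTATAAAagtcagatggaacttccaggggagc
Ccl8: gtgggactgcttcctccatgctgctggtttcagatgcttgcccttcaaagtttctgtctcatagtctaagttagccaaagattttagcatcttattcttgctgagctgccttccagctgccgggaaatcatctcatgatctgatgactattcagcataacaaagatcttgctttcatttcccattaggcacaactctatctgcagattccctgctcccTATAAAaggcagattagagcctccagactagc
The TATAAA match lay 31 to 26 bases before the start of Ccl12 and 32 to 27 bases before that of Ccl8, and 7.55% of the 32536 distinct promoter stretches of this length held one. Neither promoter held TGANTCA, the AP-1 motif, which 6.73% of all stretches held, or the cyclic AMP response element TGACGTCA, held by 1.56%, both searched on both strands. Neither held the 10-base NF-kB consensus, which 3.92% held on either strand. A match is a description of letters only, and the builds of the promoters and the peaks differ, so no peak was assigned to these promoters.

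The peaks were dense on the side of Ccl2 and Ccl7 and sparse beyond. Split where neighbours lay more than 10 kb apart, 15 of the 30 peaks formed a run of 43.7 kb from 30.5 kb left to 12.5 kb right of the Ccl2 position. A run of 6 peaks followed at 31.7 to 52.6 kb, a pair at 64.9 and 66.1 kb, single peaks at 80.8, 104 and 160 kb, and a run of 4 peaks at 136 to 148 kb. All levels here are RPKM, reads per 1000000 reads in peaks and per kb of peak, after scaling between libraries. Over all 8 libraries the peaks averaged 9.51 to 70.5 RPKM with a median of 28.2 RPKM, against 16.9 RPKM for the median peak of the table, and 22 of the 30 lay above the latter. The highest was at 28.4 kb left of the Ccl2 position, followed by the peak that holds the Ccl2 position and by the one at 30.5 kb left. Peak widths ran from 201 to 1076 bp with a median of 418 bp, close to the 404 bp of the table. The cluster held 619 reads in the unstimulated library of mouse 1, the shallowest, and 1272 to 2322 reads in the other 7.

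**Figure D1:**
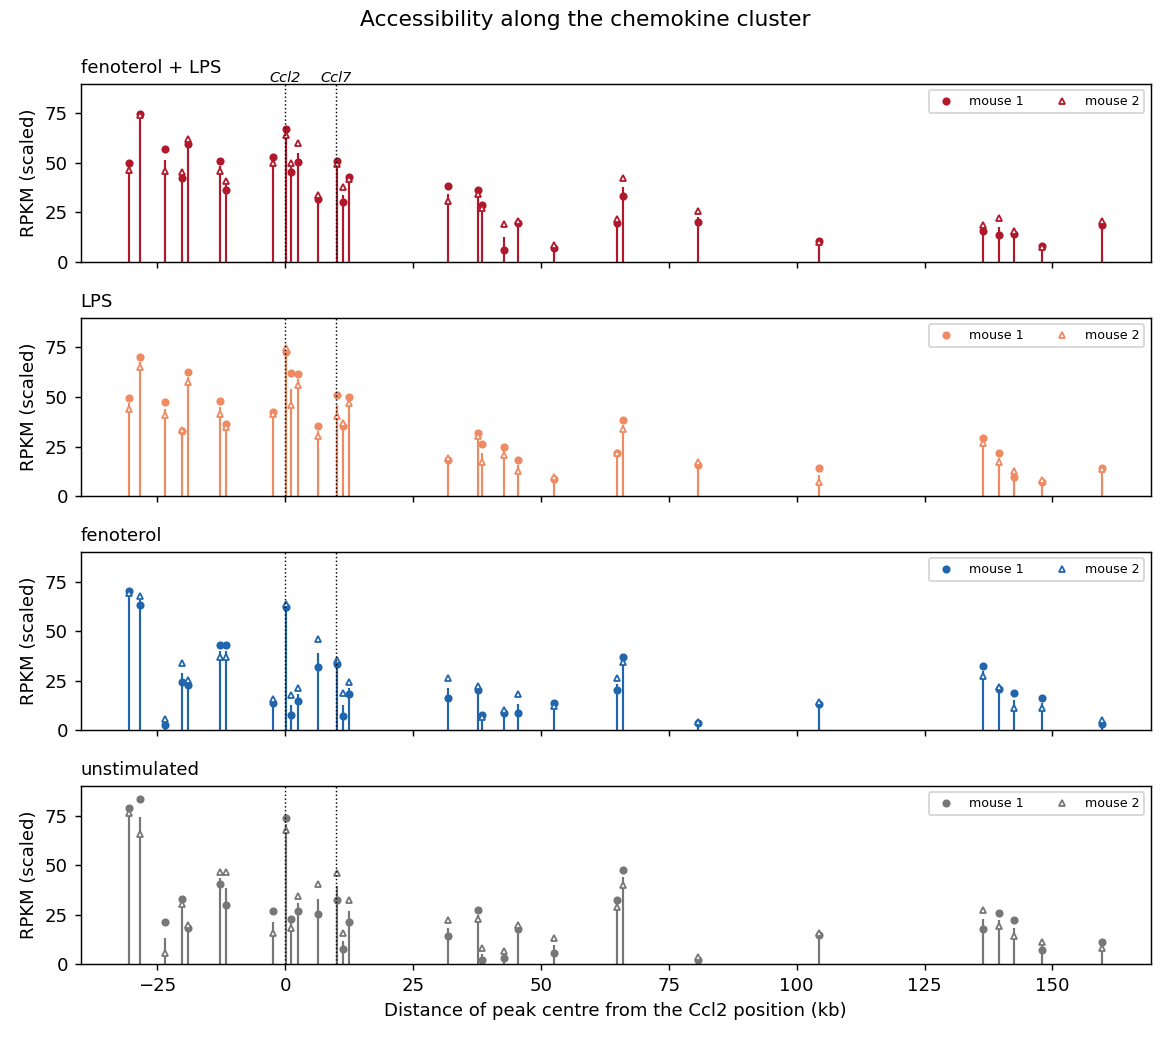
Accessibility of the 30 peaks (scaled RPKM, vertical axis) by distance of the peak centre from the Ccl2 position (kb, horizontal axis) in the 4 groups, with a line for the mean of 2 mice, circles for mouse 1 and triangles for mouse 2. The peak at the Ccl2 position is tall in all 4 panels, whereas several neighbours are tall only in the panels of fenoterol + LPS and LPS.

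LPS opened chromatin on both sides of Ccl2 and next to Ccl7, while the peak that holds the Ccl2 position, tall in unstimulated cells, did not pass the test. Against unstimulated cells, 10 of the 29 peaks tested rose with LPS (34.5%, where 6.53% of all tested peaks rose) and 1 fell (3.45%, where 3.54% of all fell). In both directions together 37.9% of the cluster was called and 10.1% of all tested peaks. Of the 10 that rose, 7 lay in the run of 15 peaks around Ccl2 and Ccl7, 2 in the next run and 1 stood alone at 80.8 kb. The median log2 change of the 29 peaks was 0.06 and that of all tested peaks -0.03. Tests were limma-trend on log2(RPKM + 4) over 66786 peaks with Benjamini-Hochberg adjustment at 0.05. Because 4 RPKM was added, log2 changes understate the ratios of levels, above all where levels are low.

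To the left of Ccl2, 3 peaks rose with LPS and the outermost fell. The peak 19.0 kb left, chr11:81829626-81830329, had 62.8 and 57.8 RPKM with LPS in mouse 1 and mouse 2, against 18.0 and 19.8 RPKM in unstimulated cells. Both LPS libraries were about as far above both unstimulated ones, and it had the smallest adjusted p of the cluster (2.80-fold, log2 change 1.49, SE 0.14, limma-trend adjusted p = 2.42e-06). The peak 23.5 kb left, chr11:81825344-81825697, had 47.3 and 40.7 RPKM with LPS, against 21.1 and 5.45 RPKM in unstimulated cells (log2 change 1.64, SE 0.31, adjusted p = 0.00173). Its unstimulated libraries disagreed, with 10 reads in mouse 1 (exact 95% Poisson interval 4.80 to 18.4) and 8 reads in the deeper mouse 2 (3.45 to 15.8). Without the unstimulated library of mouse 2 its log2 change was 0.93. The peak 2.44 kb left, chr11:81846320-81846796, had 42.2 and 41.5 RPKM with LPS, against 26.7 and 15.6 RPKM in unstimulated cells (log2 change 0.90, SE 0.18, adjusted p = 0.0028), and a log2 change of 0.58 without the unstimulated library of mouse 2. The peak 30.5 kb left, chr11:81818217-81818776, fell to 49.6 and 44.1 RPKM with LPS, against 78.8 and 76.5 RPKM in unstimulated cells (log2 change -0.68, SE 0.13, adjusted p = 0.0021). That call was lost without the LPS library of mouse 2 (adjusted p = 0.0758). Its neighbour 28.4 kb left, the tallest of the cluster, had 70.0 and 65.4 RPKM with LPS, against 83.1 and 65.7 RPKM in unstimulated cells, and did not pass (log2 change -0.12, 95% interval -0.42 to 0.18).

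The Ccl2 position itself lay in a broad peak, chr11:81848676-81849465, with nearly even accessibility in all libraries. It had 66.9 and 64.3 RPKM with fenoterol + LPS, 72.8 and 74.5 RPKM with LPS, 62.0 and 63.8 RPKM with fenoterol and 73.8 and 67.9 RPKM in unstimulated cells. The LPS and unstimulated libraries overlapped. The log2 change with LPS was 0.05 (95% interval -0.22 to 0.33, limma-trend adjusted p = 0.851), so on this scale a rise beyond 0.33 lies outside the interval. It was not called in any of the 5 contrasts, nor in any of the alternatives tried.

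Immediately to the right of the Ccl2 position, the next peaks rose. The peak at 1.17 kb, chr11:81849955-81850378, had 62.2 and 46.1 RPKM with LPS, against 22.9 and 18.2 RPKM in unstimulated cells (log2 change 1.24, SE 0.22, limma-trend adjusted p = 0.0011). The peak at 2.49 kb, chr11:81850951-81852027 and the widest of the cluster, had 61.8 and 56.1 RPKM with LPS, against 27.0 and 34.6 RPKM in unstimulated cells (log2 change 0.86, SE 0.16, adjusted p = 0.00184). In both peaks the LPS libraries stood above both unstimulated ones, and both calls were kept without any 1 of the 8 libraries. With LPS these flanking peaks came nearer to the level of the Ccl2 peak, whereas in unstimulated cells they were far below it. The peak between the genes at 6.37 kb had 35.5 and 30.1 RPKM with LPS, against 25.2 and 40.6 RPKM in unstimulated cells, and did not pass.

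At Ccl7, the peaks to the right of its position rose. The peak that holds the Ccl7 position, chr11:81858875-81859539, had 51.1 and 40.4 RPKM with LPS, against 32.6 and 46.0 RPKM in unstimulated cells. These groups overlapped and the peak did not pass (log2 change 0.21, 95% interval -0.12 to 0.54, limma-trend adjusted p = 0.451). The next peak, 11.4 kb right of the Ccl2 position at chr11:81860158-81860557, had 35.5 and 36.7 RPKM with LPS, against 7.48 and 15.7 RPKM in unstimulated cells (log2 change 1.41, SE 0.28, adjusted p = 0.00237). The peak at 12.5 kb, chr11:81860989-81861927, had 50.1 and 47.1 RPKM with LPS, against 21.5 and 32.3 RPKM in unstimulated cells (log2 change 0.79, SE 0.17, adjusted p = 0.0049). At 12.5 kb, leaving out either mouse 1 library of this comparison ended the call, at an adjusted p of 0.0619 (LPS) and 0.0584 (unstimulated). With a spread that does not depend on the mean, the adjusted p was 0.0667 at 12.5 kb, 0.0512 at 11.4 kb and 0.0502 at 23.5 kb left, so those 3 calls were lost.

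Further right, beyond the Ccl7 peaks, another 3 peaks rose, at lower levels. The peak at 38.4 kb, chr11:81887253-81887633, had 26.1 and 17.1 RPKM with LPS, against 1.96 and 8.22 RPKM in unstimulated cells (log2 change 1.56, SE 0.32, limma-trend adjusted p = 0.00366). The peak at 42.7 kb, chr11:81891616-81891866, had 24.9 and 20.6 RPKM with LPS, against 2.99 and 6.73 RPKM in unstimulated cells (log2 change 1.62, SE 0.37, adjusted p = 0.00673). The peak at 80.8 kb, chr11:81929634-81929961, had 15.6 and 17.4 RPKM with LPS, against 2.28 and 3.67 RPKM in unstimulated cells (log2 change 1.56, SE 0.33, adjusted p = 0.00437). In all 3 the unstimulated library of mouse 1 stood at 1 read, the lowest value in a table that holds no 0, so it may also stand for no read. Without that library the adjusted p was 0.027, 0.0388 and 0.0158 in the same order. The call at 38.4 kb was lost without the LPS library of mouse 1 (0.0926), that at 42.7 kb without the LPS library of mouse 1 (0.0913) or of mouse 2 (0.056), and that at 80.8 kb without the LPS library of mouse 2 (0.0752). The pair of peaks at 64.9 and 66.1 kb was not called. The taller, chr11:81914684-81915559, had 38.2 and 34.1 RPKM with LPS, against 47.8 and 40.1 RPKM in unstimulated cells (log2 change -0.25, 95% interval -0.56 to 0.06). None of the 5 peaks tested beyond 100 kb was called in this comparison, and the peak at 148 kb was too low to be tested.

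**Figure D2:**
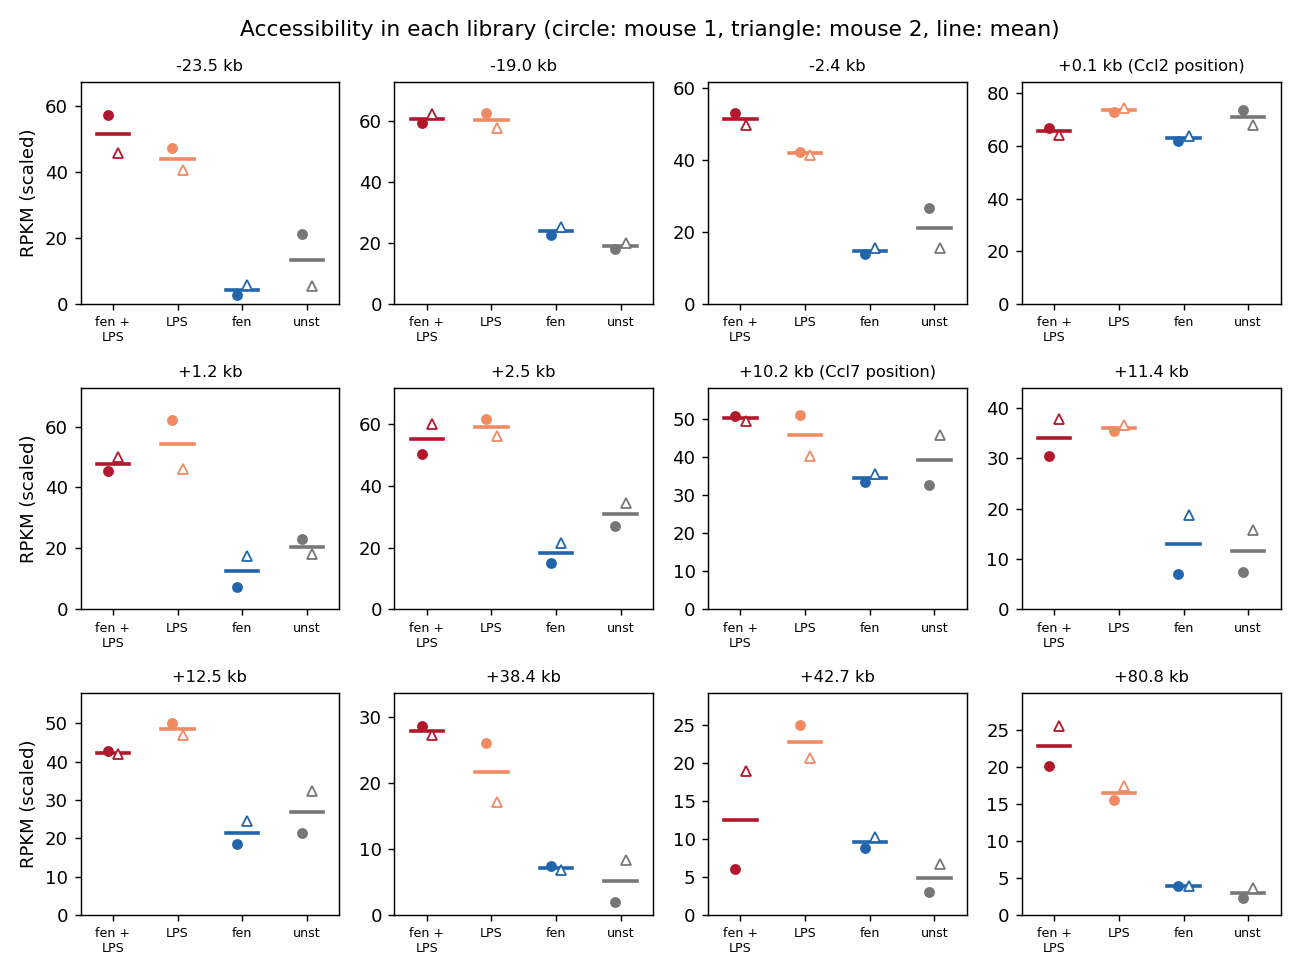
Scaled RPKM (vertical axis) in each of the 8 libraries for the 10 peaks that rose with LPS and for the peaks at the Ccl2 and Ccl7 positions, by group (fen, fenoterol; unst, unstimulated), with circles for mouse 1, triangles for mouse 2 and a line for the mean. At 19.0 kb left both libraries with LPS alone lie at or above 57.8 RPKM and both unstimulated ones at or below 19.8 RPKM, whereas at the Ccl2 position all 8 lie between 62.0 and 74.5 RPKM.

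When fenoterol preceded LPS, the same side of the cluster opened. Fenoterol + LPS against fenoterol, which shares no library with the comparison above, gave 13 peaks that rose (44.8% of the 29 tested, where 9.43% of all tested peaks rose) and 2 that fell (6.90%, where 4.32% of all fell), together 51.7% against 13.7%. The median log2 change was 0.49 in the cluster and -0.03 over all tested peaks. Of the peaks that rose, 9 had also risen with LPS alone, which is 9 of 10 in that list and 9 of 13 in this one, and the peak that had fallen with LPS alone fell here too. Over all tested peaks 3204 rose in both, which is 73.4% of the 4363 that rose with LPS alone and 50.9% of the 6300 that rose here. Peaks that fell in both numbered 934, or 39.5% of the 2363 with LPS alone and 32.4% of the 2882 here. The spread of each peak was estimated from all 8 libraries in both comparisons. At these 9 peaks the median level in the 4 libraries with LPS was 41.5 to 47.3 RPKM, and in the 4 without LPS 7.43 to 21.1 RPKM; the peaks were chosen on this difference.

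The peak 23.5 kb left of the Ccl2 position changed the most. It had 57.3 and 45.8 RPKM with fenoterol + LPS, against 2.67 and 5.82 RPKM with fenoterol alone (log2 change 2.77, SE 0.31, limma-trend adjusted p = 6.47e-06). The fenoterol libraries held 3 and 8 reads there, and the fenoterol + LPS libraries 80 and 58. The peak 2.44 kb left had 53.1 and 49.8 RPKM with fenoterol + LPS, against 13.8 and 15.6 RPKM with fenoterol (log2 change 1.57, SE 0.18, adjusted p = 9.66e-06). To the right of the Ccl2 position, the peak at 1.17 kb had 45.4 and 50.1 RPKM with fenoterol + LPS, against 7.42 and 17.6 RPKM with fenoterol (log2 change 1.72, SE 0.22, adjusted p = 3.13e-05). The peak at 2.49 kb had 50.2 and 60.1 RPKM, against 14.9 and 21.5 RPKM with fenoterol (log2 change 1.43, SE 0.16, adjusted p = 9.12e-06). In each of these 4 peaks both fenoterol + LPS libraries stood at more than the level of either fenoterol library. The peak 19.0 kb left, at 59.3 and 62.3 RPKM against 22.8 and 25.2 RPKM with fenoterol, rose by a log2 change of 1.21 (SE 0.14, adjusted p = 9.12e-06).

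The peaks beside Ccl7 and further right also rose. The peak at 11.4 kb had 30.4 and 37.7 RPKM with fenoterol + LPS, against 7.08 and 18.7 RPKM with fenoterol (log2 change 1.26, limma-trend adjusted p = 0.00413), and that at 12.5 kb 42.8 and 41.9 RPKM, against 18.4 and 24.4 RPKM with fenoterol (log2 change 0.88, adjusted p = 0.00143). At 38.4 kb the levels were 28.6 and 27.1 RPKM with fenoterol + LPS, against 7.43 and 6.76 RPKM with fenoterol (log2 change 1.52, adjusted p = 0.00309). At 80.8 kb they were 20.1 and 25.6 RPKM with fenoterol + LPS, against 3.84 and 3.93 RPKM with fenoterol (log2 change 1.76, adjusted p = 0.00111). In these 4 peaks both fenoterol + LPS libraries lay above both fenoterol ones. The peak at 42.7 kb, which had risen with LPS alone, had 6.06 and 19.0 RPKM with fenoterol + LPS, against 8.78 and 10.3 RPKM with fenoterol, and was not called (adjusted p = 0.829).

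Another 4 peaks rose with fenoterol + LPS against fenoterol and were not called for LPS alone. The peak at the Ccl7 position had 51.0 and 49.5 RPKM with fenoterol + LPS, against 33.5 and 35.6 RPKM with fenoterol (log2 change 0.49, SE 0.16, limma-trend adjusted p = 0.0408). The peak 20.2 kb left, chr11:81828665-81829029, had 42.3 and 45.2 RPKM, against 24.1 and 33.9 RPKM with fenoterol (log2 change 0.55, adjusted p = 0.0217). The peak at 37.7 kb, chr11:81886475-81886911, had 36.5 and 34.5 RPKM, against 20.1 and 22.4 RPKM with fenoterol (log2 change 0.65, adjusted p = 0.00867). The outermost peak at 160 kb, chr11:82008581-82008782, had 18.9 and 20.8 RPKM, against 3.12 and 5.11 RPKM with fenoterol, where it held 2 and 4 reads (log2 change 1.56, SE 0.31, adjusted p = 0.00159). Of the 2 peaks that fell, the peak 30.5 kb left had 50.2 and 46.4 RPKM with fenoterol + LPS, against 70.2 and 69.4 RPKM with fenoterol (log2 change -0.50, adjusted p = 0.0149). The peak at 136 kb, chr11:81985191-81985605, had 15.9 and 18.9 RPKM with fenoterol + LPS, against 32.6 and 27.3 RPKM with fenoterol (log2 change -0.67, adjusted p = 0.023).

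These calls rested unevenly on single libraries. Of the 15, 9 were kept without any 1 library, and 6 were lost without at least 1. Leaving out mouse 2 of fenoterol + LPS gave a total of 9, as did leaving out mouse 1 of fenoterol. At the Ccl7 position the limma-trend adjusted p was 0.109 to 0.226 without any 1 of the 4 libraries compared and 0.0537 on values as deposited. At 30.5 kb left it was 0.0738 to 0.173 without any 1 of those 4. The calls at 20.2 kb left, 37.7 kb and 136 kb were each lost without either fenoterol + LPS library or the fenoterol library of mouse 1, at an adjusted p of 0.0575 to 0.326. That at 11.4 kb was lost without the fenoterol + LPS library of mouse 2 (0.0747) or the fenoterol library of mouse 1 (0.13, with a log2 change of 0.74). At 20.2 kb left the log2 change without the fenoterol library of mouse 1 was 0.33. With a spread that does not depend on the mean, 5 calls were lost (30.5 kb left, 20.2 kb left, the Ccl7 position, 11.4 kb and 136 kb), at an adjusted p of 0.0565 to 0.172.

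In all, 14 of the 30 peaks were called in neither LPS comparison, 1 of them untested. These peaks were chosen for the lack of a call, so levels that differ little between groups are in part due to that choice. Their median was 25.7 and 26.4 RPKM with fenoterol + LPS, 21.8 and 20.6 RPKM with LPS, 20.7 and 26.4 RPKM with fenoterol and 25.6 and 25.7 RPKM in unstimulated cells. They include the peak at the Ccl2 position, the tallest peak, and those 12.7 and 11.5 kb left of Ccl2. At 12.7 kb left the levels were 51.0 and 45.9 RPKM with fenoterol + LPS, 48.0 and 41.4 RPKM with LPS, 43.1 and 37.1 RPKM with fenoterol and 40.5 and 46.5 RPKM in unstimulated cells, and the LPS and unstimulated libraries overlapped.

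**Figure D3:**
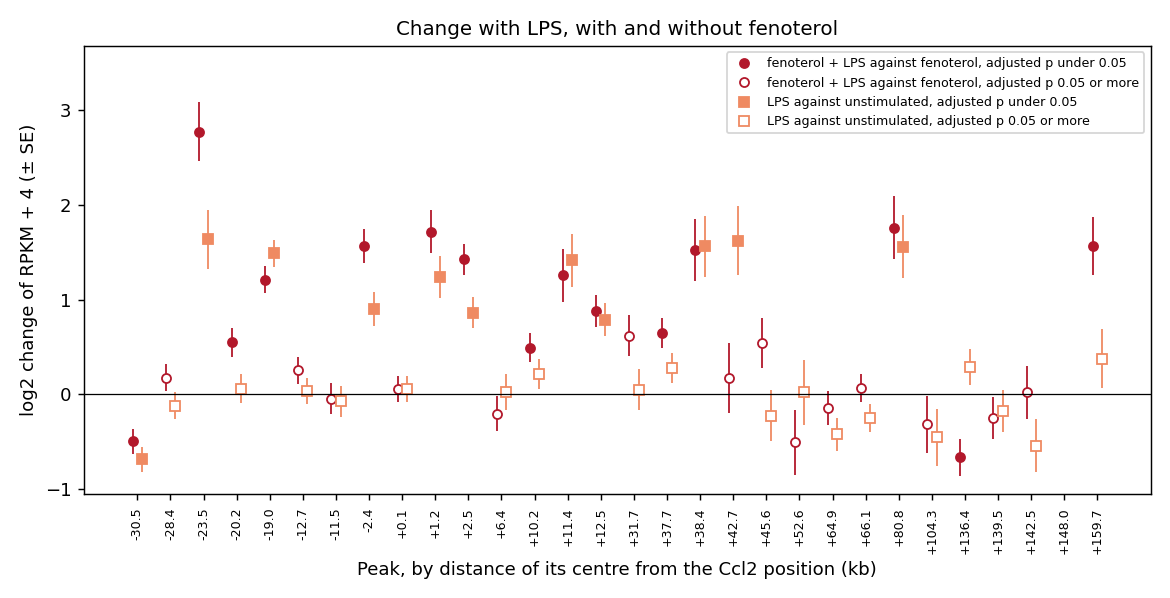
Log2 change of RPKM + 4 (vertical axis, bars ± SE of the fit) for fenoterol + LPS against fenoterol (circles) and LPS against unstimulated (squares) at the 29 tested peaks in order of position (horizontal axis, kb from the Ccl2 position); filled symbols passed an adjusted p of 0.05. Filled symbols of both comparisons stand together at 9 risen peaks and at the fallen peak 30.5 kb left, and the symbols at +0.1 kb, the Ccl2 peak, lie near 0.

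Fenoterol for 15 min without LPS moved no peak of the cluster past the threshold. This comparison uses the same unstimulated libraries as that of LPS against unstimulated. None of the 29 was called by limma-trend, where 0.00749% of all tested peaks were called, and 5 had an unadjusted p under 0.05 (17.2%, where 7.43% of all tested peaks did), all 5 lower with fenoterol. The smallest p was at 2.49 kb, with 14.9 and 21.5 RPKM with fenoterol, against 27.0 and 34.6 RPKM in unstimulated cells (log2 difference -0.66, 95% interval -1.002 to -0.32, limma-trend adjusted p = 0.348). Both fenoterol libraries lay below both unstimulated ones. Voom on reads recovered from the RPKM steps called this peak and no other of the cluster (adjusted p = 0.017), where it called 0.0464% of all tested peaks. At 1.17 kb the levels were 7.42 and 17.6 RPKM with fenoterol, against 22.9 and 18.2 RPKM in unstimulated cells (log2 difference -0.64, adjusted p = 0.559). That difference was -0.18 when fenoterol mouse 1 was left out and -1.10 when fenoterol mouse 2 was. At 160 kb they were 3.12 and 5.11 RPKM with fenoterol, against 11.1 and 8.37 RPKM in unstimulated cells (log2 difference -0.76, adjusted p = 0.615).

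At another 2 of these peaks the 2 unstimulated libraries disagreed, and the size of the difference depended on which of them was kept. At 23.5 kb left the levels were 2.67 and 5.82 RPKM with fenoterol, against 21.1 and 5.45 RPKM in unstimulated cells (log2 difference -0.93, limma-trend adjusted p = 0.532). Leaving out unstimulated mouse 1 gave a log2 difference of -0.22, and leaving out unstimulated mouse 2 gave -1.64 with an adjusted p of 0.00128. At 2.44 kb left the levels were 13.8 and 15.6 RPKM with fenoterol, against 26.7 and 15.6 RPKM in unstimulated cells. The log2 difference of -0.39 was -0.07 when unstimulated mouse 1 was left out, and -0.71, with an adjusted p of 0.0207, when unstimulated mouse 2 was. At 2.49 kb the log2 difference was -0.82 without unstimulated mouse 1 and -0.50 without unstimulated mouse 2. With 2 libraries in a group, leaving out either moves a difference by the same amount. Such values therefore cannot show on which of the 2 libraries a difference rests.

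Fenoterol before LPS against LPS alone gave 0 calls by limma-trend in the cluster and 0% over all tested peaks, with 4 cluster peaks at an unadjusted p under 0.05 (13.8%, where 6.66% of all tested peaks were). The lowest p was at 31.7 kb, chr11:81880504-81880968, with 38.1 and 30.6 RPKM with fenoterol + LPS, against 18.3 and 19.3 RPKM with LPS (log2 difference 0.75, SE 0.22, adjusted p = 0.462). Both fenoterol + LPS libraries lay above both LPS ones. In the groups without LPS it had 16.2 and 26.6 RPKM with fenoterol and 14.5 and 22.3 RPKM in unstimulated cells. Voom called it (adjusted p = 0.0288), as it did 0.602% of all tested peaks, and no other peak of the cluster. The peak 20.2 kb left also had higher values, at 42.3 and 45.2 RPKM with fenoterol + LPS, against 32.6 and 33.5 RPKM with LPS (log2 difference 0.37, adjusted p = 0.699). At 136 kb the values were lower, at 15.9 and 18.9 RPKM with fenoterol + LPS, against 29.4 and 26.8 RPKM with LPS (log2 difference -0.59, adjusted p = 0.522). At 42.7 kb they were 6.06 and 19.0 RPKM with fenoterol + LPS, against 24.9 and 20.6 RPKM with LPS (log2 difference -0.81, adjusted p = 0.723), with 6 and 17 reads in the fenoterol + LPS libraries. Leaving out fenoterol + LPS mouse 1 gave -0.22 there, and leaving out mouse 2 of that group -1.41.

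The peaks at and around the gene positions were not called with fenoterol before LPS against LPS alone. The log2 difference of fenoterol + LPS against LPS was -0.16 at the Ccl2 position (95% interval -0.44 to 0.12), -0.16 at 1.17 kb (-0.62 to 0.31) and -0.09 at 2.49 kb (-0.44 to 0.25). It was 0.01 at 19.0 kb left (-0.28 to 0.30), 0.27 at 2.44 kb left (-0.11 to 0.65) and 0.13 at the Ccl7 position (-0.19 to 0.46). It was -0.0012 at 6.37 kb (-0.39 to 0.39), 0.11 at 11.5 kb left (-0.23 to 0.46) and 0.11 at 12.7 kb left (-0.19 to 0.40). At 20.2 kb left the interval, 0.04 to 0.69, lay above 0. These intervals do not show that the groups are alike; at 1.17 kb they leave room for a difference of 0.62 in the lower direction.

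**Figure D4:**
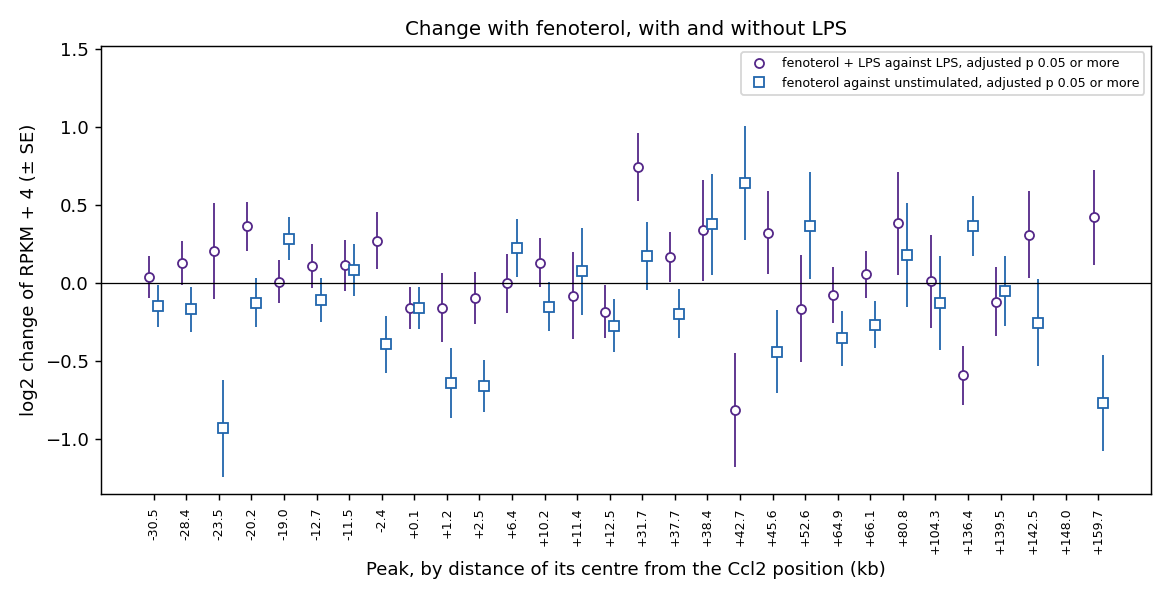
Log2 difference of RPKM + 4 (vertical axis, bars ± SE of the fit) for fenoterol + LPS against LPS (circles) and fenoterol against unstimulated (squares) at the 29 tested peaks in order of position (horizontal axis, kb from the Ccl2 position). All symbols are open, since none passed an adjusted p of 0.05; the highest circle is at 31.7 kb and the lowest square at 23.5 kb left.

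Whether the LPS change differed with fenoterol was tested as an interaction, and no peak of the cluster passed by limma-trend, nor did any of all tested peaks (0%). Cells with fenoterol alone were taken 1 h earlier than those with both. The interaction therefore cannot tell a different LPS change from a change with time after fenoterol. Voom called none in the cluster and 0.00599% of all. In the cluster 7 peaks had an unadjusted p under 0.05 (24.1%, where 6.33% of all tested peaks did). The smallest was at 136 kb, where the LPS change was lower with fenoterol (log2 difference of changes -0.96, SE 0.27, adjusted p = 0.587). At 42.7 kb it was also lower (-1.45, SE 0.52, adjusted p = 0.691, and -0.86 with fenoterol + LPS mouse 1 left out), and at 160 kb (1.19, adjusted p = 0.698) and 23.5 kb left (1.14, adjusted p = 0.722) it was higher. At 2.44 kb left it was 0.66 (adjusted p = 0.722). With unstimulated mouse 2 left out, so that its group rests on the shallow library, 3 were called, at 23.5 kb left (adjusted p = 0.0209), 2.44 kb left (0.0485) and 136 kb (0.0487). With unstimulated mouse 1 left out instead, the difference of changes was 0.43 at 23.5 kb left, 0.34 at 2.44 kb left and -0.70 at 136 kb, none of them called. At the Ccl2 position the difference of changes was 0.00 (95% interval -0.39 to 0.40).

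Summed over its 30 peaks, the cluster held 587 and 606 reads per 1000000 reads in peaks with fenoterol + LPS, 610.0 and 553 with LPS, 399 and 437 with fenoterol and 462 and 478 in unstimulated cells (scaled values, mouse 1 and mouse 2). All 4 libraries with LPS were above all 4 without. The ratio of group means was 1.43 for fenoterol + LPS against fenoterol, 1.24 for LPS against unstimulated, 1.03 for fenoterol + LPS against LPS and 0.889 for fenoterol against unstimulated. By mouse these ratios were 1.47 and 1.39, 1.32 and 1.16, 0.962 and 1.10, and 0.864 and 0.914. A sum over chosen peaks was given no test. A window of equal length directly to the left held only 8 peaks, summing to 44.8 ± 0.489 with fenoterol + LPS, 42.4 ± 5.55 with LPS, 44.8 ± 5.27 with fenoterol and 51.0 ± 4.62 in unstimulated cells (SD, n = 2). Of these 8, 0 rose and 1 fell with LPS. The window directly to the right held 4 peaks, summing to 17.7 ± 1.02, 15.6 ± 3.24, 14.8 ± 1.69 and 14.6 ± 1.57 in the same order of groups, and none of the 3 tested was called. Between LPS and unstimulated libraries, the sums of the right window overlapped and those of the left window were lower with LPS. For fenoterol + LPS against fenoterol, the right window was higher in both mice, with ratios of 1.15 and 1.25. The left window had ratios of 1.08 in mouse 1 and 0.930 in mouse 2 for that comparison.

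**Figure D5:**
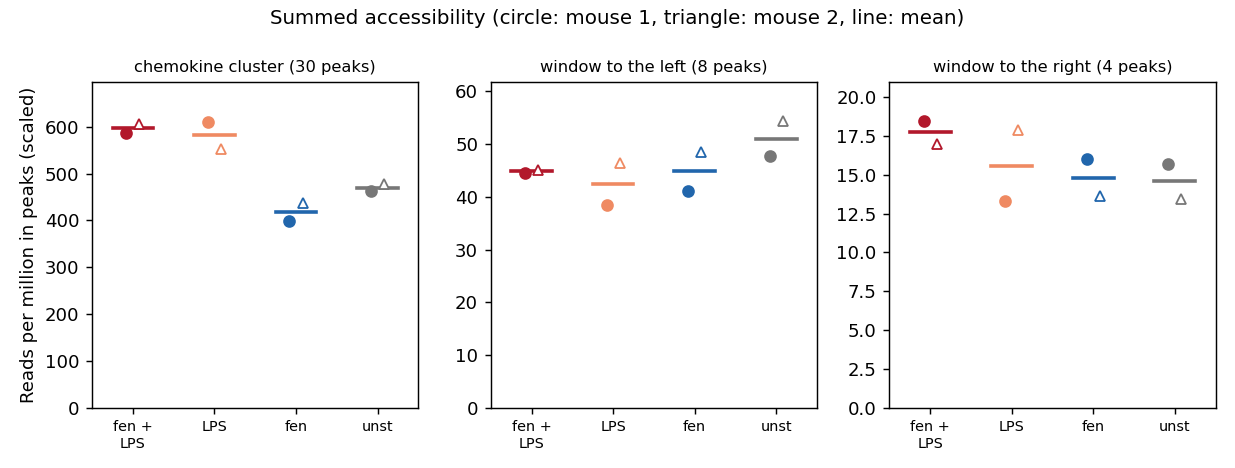
Summed accessibility (reads per 1000000 reads in peaks, scaled, vertical axis from 0) by group (fen, fenoterol; unst, unstimulated) for the cluster and for the windows of equal length to its left and right, with circles for mouse 1, triangles for mouse 2 and a line for the mean. In the cluster the 4 libraries with LPS lie at or above 553 and the 4 without at or below 478.

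The pattern of the Ccl2 peak over the 8 libraries was set beside that of every other tested peak. Within the window the highest Pearson correlations of log2 values were 0.53 with the peak at 1.17 kb, 0.52 with the peak 23.5 kb left and 0.50 with the peak at 2.49 kb. Outside it the highest were 0.971 with chr18:31918960-31920263, 0.967 with chrX:130672385-130672740 and 0.967 with chr10:121078654-121079014. These are descriptions over 8 libraries that share mice and depth, picked from all tested peaks, and the Ccl2 peak itself varied only from 62.0 to 74.5 RPKM.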

How the data were processed

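RPKM values were deposited by the authors for every peak in each of the 8 libraries, on build mm9. Cutadapt, Bowtie2, MACS2 and HOMER are named in the submitters' processing notes; whether duplicates were removed, reads shifted for Tn5 or libraries pooled to call peaks is not given in the sources used here. Multiplied by peak length, 100% of values came within 0.01 read of whole reads. RPKM is thus relative to reads in peaks (1425275 in the unstimulated library of mouse 1, 3164244 to 4040220 in the others), so a change shared by every peak is invisible. No value was 0, and the recovered reads summed to 1598 more than that library's total and 20 to 202 more in the others, the difference that a floor of 1 read for peaks without reads would give; no source used here states such a floor. Values were divided by median-ratio size factors (0.940 to 1.04), and log2 was taken after adding 4 RPKM.

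Peaks whose mean was under 9.62 RPKM, 10% of the table, were not tested. A model of 4 group means over all 8 libraries was fitted with limma 3.58.1 in R 4.3.3, with a mean trend (limma-trend), 4 residual degrees of freedom and 16.4 prior ones. Adjusted p-values are Benjamini-Hochberg over 66786 peaks. P-values of limma-trend rest on a spread that combines the one between 2 mice per group (4 degrees of freedom) with the mean trend over all tested peaks (16.4). The trend weighed more than the mice. The mice pair the libraries per the labels; their differences correlated at 0.0223 to 0.0713 between groups. Voom was run on the recovered reads, with 4 residual and 142 prior degrees of freedom. Its p-values therefore rest even less on the spread between these mice. Poisson intervals cover counting error only.

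Values in each library are given for peaks within 1 kb of the Ccl2 and Ccl7 positions, peaks called in any contrast, the smallest p of each contrast and the 3 tallest; others that are named were chosen after their values were seen. Members, lists and tests were chosen with earlier results of these data known.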

Additional observations from a re-analysis of the deposited data

How the results depend on the processing

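For LPS against unstimulated cells the count of 11 called peaks became 8 to 11 and stayed within 1.5 times under all 18 alternatives. For fenoterol + LPS against fenoterol the 15 called became 9 to 16 when 1 library was left out and 10 to 16 otherwise. With the mouse as a replicate block the counts were 11, 15, 0, 0 and 0 in the 5 contrasts, so the pairing changed no count of calls. For fenoterol against unstimulated the count of 0 became 1 by voom and 0 to 2 when 1 library was left out. For fenoterol + LPS against LPS it became 1 by voom and stayed at 0 when any 1 library was left out. For the interaction it was 0 to 3 when 1 library was left out. The summed ratio ran from 1.36 to 1.49 for fenoterol + LPS against fenoterol and from 0.849 to 0.930 for fenoterol against unstimulated when 1 library was left out. For fenoterol + LPS against LPS its direction depended on the LPS library kept. The fenoterol + LPS mean of 596 lay between the LPS sums of 610.0 (mouse 1) and 553 (mouse 2). A pseudocount of 20 RPKM lowered log2 changes without losing a call; at 23.5 kb left they were 1.56 for fenoterol + LPS against fenoterol and 0.98 for LPS against unstimulated.

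Over the 29 peaks and 5 contrasts, no called change turned its sign under any alternative; uncalled ones did so 72 times on leaving out 1 library and 20 times otherwise, 10 of these under voom (at 6.37 kb, LPS against unstimulated was 0.02, and -0.15 under voom). On leaving out 1 library, the log2 change for LPS against unstimulated ran from -0.28 to 0.040 at 28.4 kb left, from -0.0025 to 0.11 at the Ccl2 position and from -0.014 to 0.43 at the Ccl7 position. For fenoterol against unstimulated it ran from -0.37 to 0.075 at the Ccl7 position. For fenoterol + LPS against LPS it ran from -0.037 to 0.12 at 30.5 kb left, from -0.36 to 0.045 at 1.17 kb and from -0.023 to 0.29 at the Ccl7 position. The cause was not tested. In the shallow unstimulated library a peak often held 10 reads or fewer, which limits the precision of its level. That library held 90 reads at 28.4 kb left, 78 at the Ccl2 position and 29 at the Ccl7 position. Fenoterol + LPS against LPS compares other libraries.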
